A study of Mus musculus with 8 samples.

Results

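The strongly enriched autosomal islands are stretches of chromosomes 1 to 19 in which an anti-Brdt ChIP library held at least 10 times as many reads as its scaled control. An island was a member when it had at least 50 ChIP reads, at least 10 control reads and a ratio of ChIP reads to depth-scaled control reads of at least 10. Of 426082 islands in the 4 deposited lists, 393689 lay on the autosomes and 1911 met all 3 limits. The members were thus chosen by measured reads and ratios, so their own reads, ratios and lengths are given as a description, and no test rests on them.

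Brdt was profiled in male germ cells of adult mice at 2 stages, post-meiotic round spermatids and meiotic spermatocytes. The BD1del mice carry a Brdt gene with the first bromodomain deleted, and the WT mice are wild type. The groups used here are BD1del round spermatids, BD1del spermatocytes, WT round spermatids and WT spermatocytes, each with 1 ChIP library, 1 island list and 1 input sample, and with no replicate. Cells were separated on a BSA gradient and fractions of each stage were pooled, so each library averages over many cells, and more cells with binding cannot be told apart from more binding per cell. WT chromatin came from 10 pooled C57BL/6 mice and was cut with MNase, a nuclease that spares nucleosomes, to about 200 bp; each ChIP used 500 µg of chromatin and 0.6 µg of antibody. For BD1del, the sources used here do not give the strain, the number of pooled mice or how chromatin was prepared. They also do not give the purity of the fractions or how well the antibody recognises Brdt without its first bromodomain. The WT lists were made from F3 tags and the BD1del lists from paired F3 and F5 tags with a barcode, per the labels of the lists, so genotype and read set cannot be told apart.

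Brdt is a BET protein of the testis that reads chromatin through bromodomains, modules that dock onto acetylated lysines of histone tails. Its first bromodomain is the one known for binding acetylated histone H4 tails, and mice without it fail to make normal sperm. An island is a run of neighbouring windows of 200 bases that together held more ChIP reads than the control predicts, as merged by the program SICER. The members are the rare islands in which the excess over control is large and the control itself is not close to empty. Positions are on mm9, for which no annotation was used here, so islands are named by position and no gene is assigned to them.

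The members were very unevenly spread over the libraries. BD1del round spermatids had 1329 members, which is 69.5% of all members, 0.697% of that list's autosomal islands and 7.80% of those that passed both read minimums. BD1del spermatocytes had 397 members, or 0.377% of the autosomal islands and 1.49% of those passing the minimums. WT round spermatids had 78 members, or 0.115% and 0.496%, and WT spermatocytes had 107 members, or 0.362% and 0.421%. The members held only 1.45% of the ChIP reads in autosomal islands in BD1del round spermatids, 0.720% in BD1del spermatocytes, 0.187% in WT round spermatids and 0.289% in WT spermatocytes.

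Depth limits how these counts can be set side by side. Autosomal islands held 6443453 ChIP reads in BD1del round spermatids, 5398790 in BD1del spermatocytes, 3684584 in WT round spermatids and 4408044 in WT spermatocytes. The control was deeper than the ChIP library by a factor of 5.45, 5.64, 3.79 and 1.79 in that order of lists. With a shallower control, 10 control reads stand for a higher background, so the same limits ask for more in some lists than in others. An island with exactly 10 control reads and 50 ChIP reads would have a ratio of 27.2 in BD1del round spermatids, 28.2 in BD1del spermatocytes and 18.9 in WT round spermatids, but only 8.94 in WT spermatocytes. In WT spermatocytes the control minimum was thus the tighter limit, and in the other lists the ChIP minimum was.

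Many more islands reached the ratio than reached the reads. A ratio of at least 10, or no control read, was found at 64762 autosomal islands of BD1del round spermatids, and the members were 2.05% of them. Of the others, 17231 failed on ChIP reads alone, 61 on control reads alone and 46141 on both. In BD1del spermatocytes the members were 3.5% of 11333 such islands, and in WT round spermatids 1.67% of 4664. In WT spermatocytes they were 20.7% of 518, with 157 islands failing on control reads alone and 0 on ChIP reads alone. The members are therefore the well-read end of a larger set of high-ratio islands in every list.

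Most members sat close to the ChIP read minimum, except in WT spermatocytes. Members with 50 to 74 ChIP reads made up 85.9% in BD1del round spermatids, 76.1% in BD1del spermatocytes and 65.4% in WT round spermatids, but 33.6% in WT spermatocytes. The ChIP reads per member ran between 50 and 1576 with a median of 57 in BD1del round spermatids, and between 50 and 2284 with a median of 60 in BD1del spermatocytes. In WT round spermatids they ran between 50 and 937 with a median of 64.5, and in WT spermatocytes between 56 and 691 with a median of 87. The median control reads were 25, 27, 19 and 12 in the same order of lists. Only 87 members (6.55%) of BD1del round spermatids, 66 (16.6%) of BD1del spermatocytes and 13 (16.7%) of WT round spermatids had 100 or more ChIP reads. In WT spermatocytes 39 members (36.4%) did.

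The ratios of the members had similar medians in the 4 lists, because the limit sets their lower end. The median ratio was 13.1 in BD1del round spermatids, 12.6 in BD1del spermatocytes, 12.7 in WT round spermatids and 11.7 in WT spermatocytes, and the highest was 56.9, 91.4, 43.6 and 26.5. A ratio of 20 or more was reached by 182, 62, 10 and 4 members, and a ratio of 40 or more by 4, 15, 1 and 0. BD1del spermatocytes thus had fewer members than BD1del round spermatids but more of them at a ratio of 40 or above. At the limit itself, the members just inside had ratios of 10.0, 10.0, 10.1 and 10.0, and the islands just outside had 9.98, 9.99, 9.99 and 9.996.

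**Figure D1:**
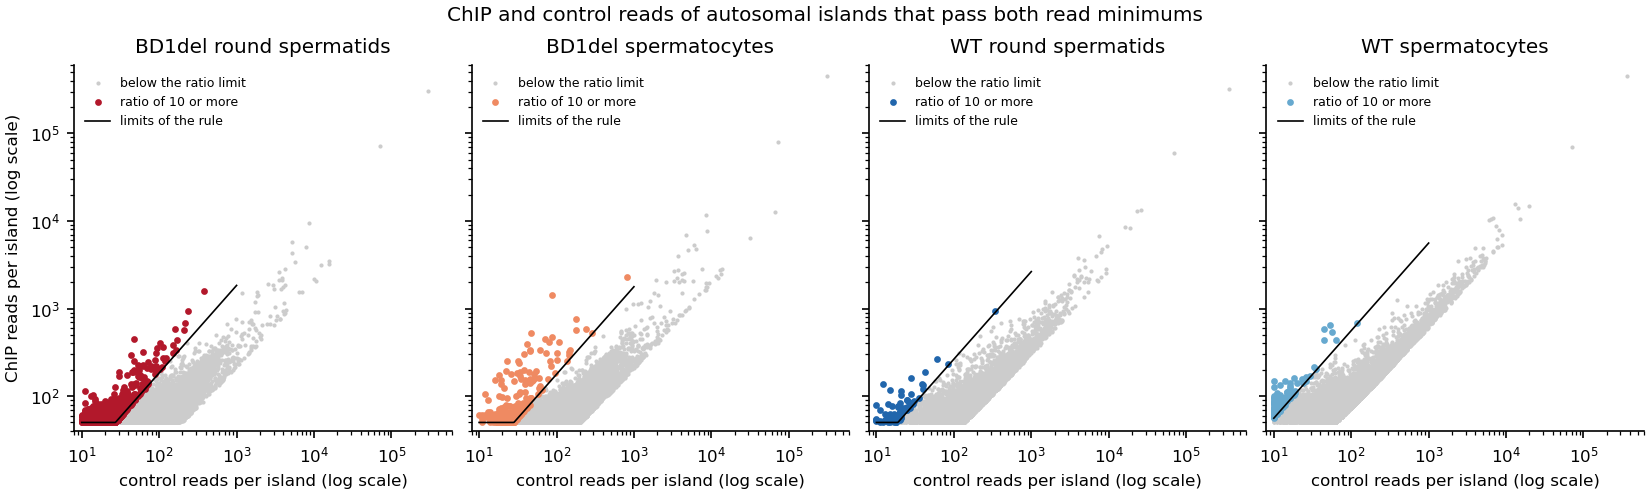
ChIP reads against control reads of each autosomal island that passed both read minimums, 1 panel per list, both axes logarithmic; coloured points are members, grey points are islands below the ratio limit, and the line marks the limits on ChIP reads and ratio. Members lie along the low-count edge in every panel, with a scatter of islands of 100 or more ChIP reads above it that is widest in BD1del spermatocytes.

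The islands of highest ratio were found in BD1del spermatocytes, and their ChIP reads came back in BD1del round spermatids. The island at chr17:4626001-4626800 had 1576 ChIP and 377 control reads in BD1del round spermatids, a ratio of 22.8, and 1426 ChIP and 88 control reads in BD1del spermatocytes, a ratio of 91.4. An island there had a ratio of 5.42 in WT round spermatids, from 93 ChIP and 65 control reads, and of 2.36 in WT spermatocytes, from 74 and 56. At chr6:132413401-132414000 the ratio was 14.6 in BD1del round spermatids (567 ChIP and 211 control reads), 62.5 in BD1del spermatocytes (521 and 47) and 5.37 in WT round spermatids (51 and 36), and WT spermatocytes had no island. The single window at chr1:12634801-12635000 had a ratio of 16.0 in BD1del round spermatids (261 and 89) and 61.0 in BD1del spermatocytes (249 and 23). The WT islands over that window had ratios of 2.95 and 2.07. At all 3 places both BD1del lists were above the limit and both WT lists were below it or had no island. The places were picked by their ratio in BD1del spermatocytes. WT islands below the limit are the usual case, since members were 0.496% of passing islands in WT round spermatids and 0.421% in WT spermatocytes. The WT round spermatid ratios of 5.42 and 5.37 were above the median of 2.01 over all passing islands of that list.

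The 3 highest ratios of BD1del round spermatids lay between 41.9 and 56.9. The island at chr7:150720001-150720400 had 115 ChIP and 11 control reads, a ratio of 56.9, and BD1del spermatocytes had an island of identical limits with 45 and 16 reads and a ratio of 15.9, short of the ChIP minimum. Neither WT list had an island there. At chr15:57938201-57938600 the ratio was 50.9 from 449 and 48 reads in BD1del round spermatids, inside an island of 520 and 288 reads and a ratio of 10.2 in BD1del spermatocytes. The third, at chr2:171688601-171689200, had 100 and 13 reads and a ratio of 41.9, had no island in BD1del spermatocytes, and lay inside islands of low ratio in WT round spermatids (1.92) and WT spermatocytes (1.76).

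The leading WT round spermatid members were below the limit or had no island in the other lists. In WT round spermatids the highest ratio was 43.6 at chr14:15691801-15692400, from 138 ChIP and 12 control reads; WT spermatocytes had an island with a ratio of 1.93 and neither BD1del list had one. At chr8:23163001-23163800, with a ratio of 30.3 from 80 and 10 reads, no other list had an island. At chr3:31041401-31042200 the ratio was 8.65 in BD1del round spermatids (27 and 17 reads, short of the ChIP minimum), 29.8 in WT round spermatids (118 and 15) and 1.98 in WT spermatocytes. The WT round spermatid member with the most ChIP reads, chr5:53425201-53427600, had an island in every list: 74 ChIP and 56 control reads gave 7.20 in BD1del round spermatids, 67 and 114 gave 3.31 in BD1del spermatocytes, 937 and 340 gave 10.4 in WT round spermatids, and 1235 and 395 gave 5.59 in WT spermatocytes. That member was named after its values were seen.

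The leading WT spermatocyte members had islands in most other lists. At chr1:120284801-120287000 the ratio was 5.31 in BD1del spermatocytes, 5.005 in WT round spermatids and 26.5 in WT spermatocytes (148 ChIP and 10 control reads). At chr14:120749201-120750200 it was 11.2 in BD1del round spermatids, 9.79 in BD1del spermatocytes, 6.77 in WT round spermatids and 23.6 in WT spermatocytes (580 and 44). That island is thus above or just below the limit in both BD1del lists as well. At chr7:3524401-3525200 it was 22.9 in WT spermatocytes, from 128 and 10 reads, and between 3.81 and 10.1 in the other lists.

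Members were shorter than the other well-read islands in every list. Their median length was 800 bases in BD1del round spermatids (95% interval of the median 800 to 800), 800 in BD1del spermatocytes (800 to 1000), 800 in WT round spermatids (800 to 800) and 1200 in WT spermatocytes (1000 to 1400). The autosomal islands that passed the read minimums but missed the ratio had medians of 1800, 2400, 2800 and 2600 bases, all longer than those of the members. Over all autosomal islands the medians were 400, 1200, 1400 and 2200 bases. Against these, members were longer in BD1del round spermatids and shorter in the other lists. Members were chosen by reads and ratio, which may depend on length, and the part of length in that choice was not tested. Members of at most 1000 bases made up 80.2% in BD1del round spermatids, 71.3% in BD1del spermatocytes, 70.5% in WT round spermatids and 46.7% in WT spermatocytes, against 13.7%, 4.66%, 6.83% and 11.3% of the islands below the ratio limit. Over all autosomal islands these shares were 80.7%, 45.0%, 37.0% and 22.4%.

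Single windows were a small share of the members in every list. These numbered 36 (2.71%) in BD1del round spermatids, 4 (1.01%) in BD1del spermatocytes, 9 (11.5%) in WT round spermatids and 1 (0.935%) in WT spermatocytes. Below the ratio limit they were rarer still, at 0.159%, 0.0304%, 0.281% and 0.451%, and among all autosomal islands they were 39.3%, 8.78%, 7.70% and 2.89%. ChIP reads were denser in the members, which were chosen by reads and ratio. The median density of ChIP reads was 83.3 per kb in BD1del round spermatids, 72.5 in BD1del spermatocytes, 90.6 in WT round spermatids and 77.5 in WT spermatocytes, against 35.0, 27.9, 24.6 and 38.2 per kb below the ratio limit. Over all autosomal islands it was 60, 33.6, 26.1 and 40.5 per kb, so the contrast was smaller in BD1del round spermatids on that measure. Control reads were at 32.5, 31.7, 25 and 11.1 per kb in members, against 46.7, 51.5, 47.0 and 41.1 below the ratio limit.

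Length was also set against the ratio, which the choice of members used, so the values are a description. The median length in BD1del round spermatids was 800 bases at ratios of 10 to under 15, 600 at 15 to under 20 and 400 at 20 or more. In BD1del spermatocytes it was 1000, 800 and 500 bases in those classes, and in WT round spermatids 800, 800 and 700. In WT spermatocytes it was 1200, 1200 and 1500. The top class held only 10 islands in WT round spermatids and 4 in WT spermatocytes, too few to set the lists apart. In both BD1del lists the classes of higher ratio had the lower median length, and they held 883, 264 and 182 members in round spermatids and 262, 73 and 62 in spermatocytes.

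**Figure D2:**
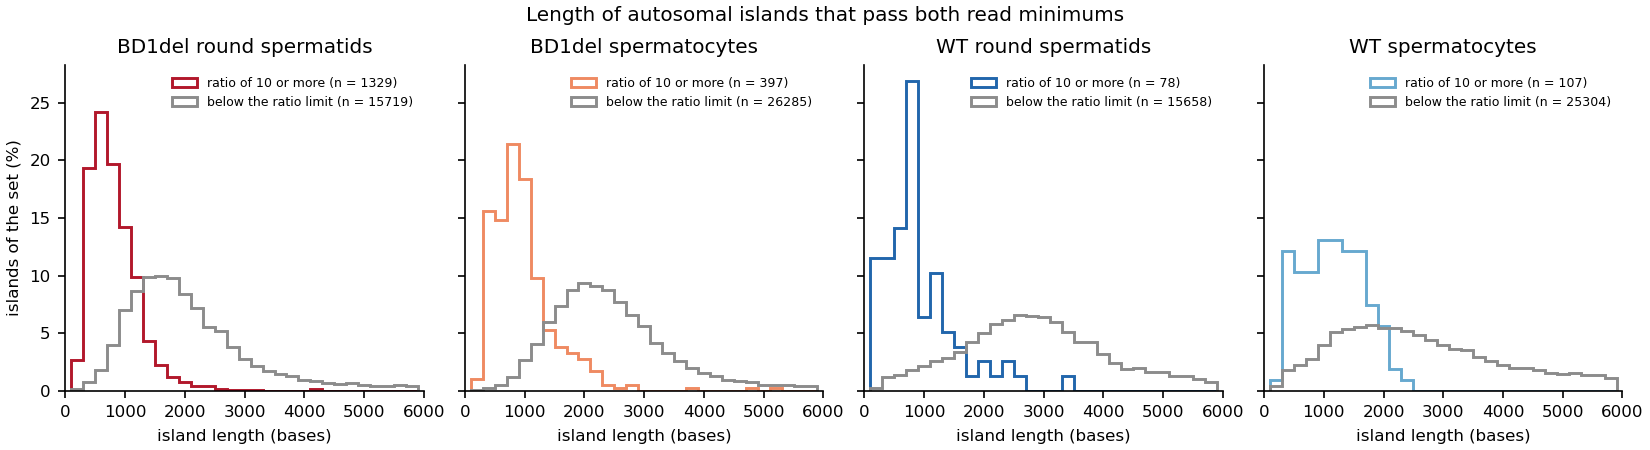
Distribution of island length (bases, in steps of 200) as a percentage of the set, 1 panel per list; coloured lines are members and grey lines are islands that passed both read minimums but missed the ratio, and islands over the right edge are not drawn. Members peak at or below 1000 bases in BD1del round spermatids, BD1del spermatocytes and WT round spermatids, are spread up to 2400 bases in WT spermatocytes, and the grey lines lie further right in every panel.

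Several of the longest members lay side by side in the runs described below. In BD1del spermatocytes the longest, at 5200 bases, was chr5:107769801-107775000 (562 ChIP and 178 control reads, ratio 17.8), followed by chr15:57937001-57941800 at 4800 bases and chr5:107785601-107789400 at 3800 bases (769 and 177 reads, ratio 24.5). The longest of BD1del round spermatids were chr15:57947001-57951200 and chr15:8466001-8470200, both of 4200 bases. The second of these, with 339 and 165 reads and a ratio of 11.2, had no island in BD1del spermatocytes and a ratio of 1.88 in WT round spermatids. In WT round spermatids the longest was chr14:77448201-77451600 at 3400 bases (96 and 35 reads, ratio 10.4), and in WT spermatocytes chr10:80084401-80086800 at 2400 bases (68 and 12 reads, ratio 10.1).

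Most members stood alone on the chromosome. The median distance to the nearest member of the same list was 547.2 kb in BD1del round spermatids, 1883.8 kb in BD1del spermatocytes, 8463.6 kb in WT round spermatids and 7619.4 kb in WT spermatocytes. A member within 50 kb was found for 80 members (6.02%, exact 95% interval 4.80 to 7.44%) in BD1del round spermatids and for 19 (4.79%, 2.91 to 7.37%) in BD1del spermatocytes. It was found for 0 of 78 members in WT round spermatids (upper bound 4.62%) and for 2 of 107 (1.87%, 0.227 to 6.59%) in WT spermatocytes. These binomial intervals, like those below, cover counting error only, and neighbouring islands are not independent.

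The distances follow from the number of members to a large degree, so the next island that passed the read minimums is a closer comparison. For BD1del round spermatids the next such island along the chromosome was a member for 119 of 1327 members, or 8.97% (7.48 to 10.6%), beside 7.80% of all passing islands. In BD1del spermatocytes it was 18 of 397, or 4.53% (2.71 to 7.07%), beside 1.49%. In WT spermatocytes it was 2 of 107, or 1.87% (0.227 to 6.59%), beside 0.421%, and in WT round spermatids 0 of 78 beside 0.496%. The share was above the background beyond counting error in BD1del spermatocytes alone, whose 2 largest runs, described below, hold 6 and 5 members.

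The members were spread over all or nearly all autosomes. Members per 100 Mb lay between 32.6 on chromosome 8 and 78.3 on chromosome 11 in BD1del round spermatids, with a median of 53.5 over chromosomes. In BD1del spermatocytes they lay between 9.38 on chromosome 13 and 24.9 on chromosome 17, with a median of 17.1. No autosome of BD1del was without a member. In WT spermatocytes they lay between 1.65 on chromosome 9 and 8.41 on chromosome 11, and in WT round spermatids the highest was 5.35 on chromosome 5 and 17 of the autosomes had a member. Bins of 1 Mb with 3 or more members numbered 68 in BD1del round spermatids, 3 in BD1del spermatocytes and 0 in each WT list.

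Members were a small share of the passing islands where those were dense. In the stretch at 3 to 24 Mb of chromosome 1, members were 7 of 563 passing islands in BD1del round spermatids and 3 of 693 in BD1del spermatocytes, and 0 of 1567 in WT round spermatids and 0 of 2120 in WT spermatocytes. At 3 to 9 Mb of chromosome 14 they were 3 of 135, 0 of 60, 0 of 306 and 0 of 312 in the same order. Along the chromosome members were not always scarce there. In BD1del round spermatids the 1 Mb bin at 3 Mb of chromosome 14 was among those with 3 or more members. In the 50 kb on either side of a WT spermatocyte member, islands of its own list covered 2.30% on average, against 9.17% around the islands below the ratio limit and 3.46% of the autosomes. Around WT round spermatid members the islands of their list covered 4.37%, against 10.3% and 4.83%. The contrast was smaller in BD1del, with 5.89% against 7.76% and 5.66% in round spermatids and 6.45% against 7.64% and 6.18% in spermatocytes. On this measure members lay in surroundings near the autosome average in both BD1del lists, near it in WT round spermatids and below it in WT spermatocytes.

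Runs, in which neighbouring members lay at most 50 kb apart, were few: 30 in BD1del round spermatids, 6 in BD1del spermatocytes, 0 in WT round spermatids and 1 in WT spermatocytes. The largest lay at chr15:57931401-57957800 in BD1del round spermatids, where 8 members in 26.4 kb held 3205 ChIP and 735 control reads, a joint ratio of 23.7. Their single ratios were 28.9, 21.6, 37.4, 50.9, 33.4, 17.0, 21.3 and 22.0 in order along the chromosome, with 2 islands of ratio 2.67 and 6.95 between them. In BD1del spermatocytes 5 members of that run met the limits, at 17.3, 13.9, 10.2, 12.3 and 17.5. WT round spermatids had 1 island there, with 41 ChIP and 55 control reads and a ratio of 2.82, and WT spermatocytes had none. The run, picked for its members in BD1del round spermatids, thus held members in BD1del spermatocytes too and in neither WT list. Members are rare in WT, at 0.496% of passing islands in round spermatids and 0.421% in spermatocytes.

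The second run of BD1del round spermatids did not come back in the same way. At chr7:150710001-150724400, 6 members in 14.4 kb had ratios of 16.7, 41.6, 22.9, 56.9, 34.3 and 28.2, from 57 to 189 ChIP reads each. BD1del spermatocytes had 4 islands there with a joint ratio of 7.79 and no member, and the WT lists had no island.

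The largest run of BD1del spermatocytes lay at chr5:107769801-107816200. Its 6 members in 46.4 kb had ratios of 17.8, 14.7, 35.8, 24.5, 21.8 and 10.2, and held 2571 ChIP and 698 control reads. BD1del round spermatids had 9 islands there, of which 4 were members, with a joint ratio of 9.53 over the 9, while each WT list had 1 island, at ratios of 2.39 in round spermatids and 2.36 in spermatocytes. The only run of WT spermatocytes was a pair at chr8:48168601-48175200, with ratios of 10.4 and 11.7, where BD1del had no island and WT round spermatids had 2 islands, of which 1 was a member.

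An island of another list overlapped a member less often than it overlapped the other well-read islands in most comparisons of stage. An overlap needed 1 common base or more, and the island met could have any ratio. Of the members of BD1del round spermatids, 239 or 18.0% (16.0 to 20.2%) met an island of BD1del spermatocytes, beside 36.9% of the passing islands below the ratio limit and 12.3% of all autosomal islands. Of the members of BD1del spermatocytes, 143 or 36.0% (31.3 to 41.0%) met an island of BD1del round spermatids, beside 38.4% and 21.6%. The difference from the other well-read islands was thus wide in round spermatids and small in spermatocytes. In WT, 24 or 30.8% (20.8 to 42.2%) of the round spermatid members met a spermatocyte island, beside 62.4% and 26.6%. Of the WT spermatocyte members, 48 or 44.9% (35.2 to 54.8%) met a round spermatid island, beside 60.6% and 58.1%. The share was below that of the other well-read islands beyond counting error in 3 of these 4 comparisons, and within it for BD1del spermatocytes. Stricter overlaps changed 2 of these calls. With at least 50% of the length shared, BD1del spermatocyte members met BD1del round spermatids more often than the islands below the limit did, at 24.2% (20.05 to 28.7%) beside 16.6%, and with the centre base at 23.9% (19.8 to 28.4%) beside 19.2%. For WT spermatocyte members met by WT round spermatids, the centre base gave 35.5% (26.5 to 45.4%) beside 44.7%, within counting error.

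Between genotypes the picture was the same except in WT spermatocytes. Of the members of BD1del round spermatids, 196 or 14.7% (12.9 to 16.8%) met an island of WT round spermatids, beside 33.0% below the ratio limit and 9.79% of all autosomal islands. Of the members of WT round spermatids, 17 or 21.8% (13.2 to 32.6%) met an island of BD1del round spermatids, beside 46.8% and 26.4%. At the round spermatid stage, members of both genotypes were thus met less often than other well-read islands. Of the members of BD1del spermatocytes, 45 or 11.3% (8.39 to 14.9%) met an island of WT spermatocytes, beside 20.1% and 8.96%. Of the members of WT spermatocytes, 51 or 47.7% (37.9 to 57.5%) met an island of BD1del spermatocytes, beside 32.1% and 30.4%. WT spermatocyte members were the one set of the 4 that met the other genotype more often than the well-read islands below the limit did. With at least 50% of the length shared, WT round spermatid members met BD1del round spermatids in 15.4% (8.21 to 25.3%) of cases beside 22.6%, within counting error. For the pair that differs in both stage and genotype, 9.71% of the BD1del round spermatid members met an island of WT spermatocytes, beside 27.8% and 6.61%, and 42.1% of the WT spermatocyte members met an island of BD1del round spermatids, beside 40.3% and 38.5%.

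Members are shorter than the passing islands below the ratio limit, so overlap was also compared within classes of length. Among the islands below the limit, the shortest were not those met least. For BD1del round spermatids met by BD1del spermatocytes, their share was 56.2% at 200 to 600 bases, 23.6% at 800 to 1200 and 39.6% at 1400 or more. For WT round spermatids met by WT spermatocytes it was 82.3%, 68.2% and 61.3%. At a matched length of 800 to 1200 bases, members of BD1del round spermatids met BD1del spermatocytes in 14.6% of cases and the islands below the limit in 23.6%. For BD1del spermatocyte members met by BD1del round spermatids the values were 29.9% and 29.0%, and for WT round spermatid members met by WT spermatocytes 29.4% and 68.2%. For WT spermatocyte members met by BD1del spermatocytes they were 43.6% and 27.2%. The members' interval excluded the other value except for BD1del spermatocyte members met by BD1del round spermatids. Of the other comparisons, BD1del round spermatid members met WT round spermatids in 14.6% (11.8 to 17.7%) of cases beside 21.4%, and WT round spermatid members met BD1del round spermatids in 23.5% (10.7 to 41.2%) beside 46.8%. Differences clear over all lengths were within counting error at this length for WT spermatocyte members met by WT round spermatids, at 46.2% (30.1 to 62.8%) beside 60.5%. The same held for BD1del spermatocyte members met by WT spermatocytes, at 10.7% (6.72 to 15.8%) beside 15.4%. Other lengths kept a difference. At 1400 bases or more, WT spermatocyte members met WT round spermatids in 32.6% (19.1 to 48.5%) of cases beside 59.6%. At 200 to 600 bases, BD1del spermatocyte members met WT spermatocytes in 8.80% (4.48 to 15.2%) beside 56.6%, and BD1del round spermatids in 43.2% (34.4 to 52.4%) beside 62.6%. In the remaining length class of each of these pairs the values were within counting error. Control reads differ between these sets by the rule itself, and their part in the overlap was not tested.

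Overlap rose with the number of ChIP reads, both in members and in the islands below the ratio limit. In BD1del round spermatids, 13.1% of the members with 50 to 74 ChIP reads met an island of BD1del spermatocytes, 26.7% with 75 to 99 and 72.4% (63 of 87) with 100 or more. In BD1del spermatocytes the shares met by BD1del round spermatids were 22.2%, 37.9% and 98.5% (65 of 66), where the islands below the ratio limit with 100 or more ChIP reads had 81.8%. In WT round spermatids, met by WT spermatocytes, they were 19.6%, 21.4% and 84.6% (11 of 13), and in WT spermatocytes, met by WT round spermatids, 25%, 46.9% and 61.5% (24 of 39). Between the lowest and the highest class, the islands below the limit rose too. In the same order of pairs their shares went from 26.7% to 86.0%, 31.1% to 81.8%, 48.9% to 86.5% and 48.1% to 73.1%. With 100 or more reads, members were above them in BD1del spermatocytes alone. Nearly every BD1del spermatocyte member with 100 or more ChIP reads thus lay on an island of BD1del round spermatids.

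The same well-read members met WT far less. Of the 66 BD1del spermatocyte members with 100 or more ChIP reads, 22.7% (13.3 to 34.7%) met an island of WT spermatocytes, against 65.4% of the islands below the ratio limit with as many reads. Of the 87 in BD1del round spermatids, 43.7% (33.1 to 54.7%) met an island of WT round spermatids, against 79.0%. In the other direction, 64.1% (47.2 to 78.8%) of the 39 in WT spermatocytes met an island of BD1del spermatocytes, against 42.3%. The islands below the limit with 100 or more reads were longer than these members. Their median lengths were 4800 bases against 900 in BD1del spermatocytes, 4400 against 800 in BD1del round spermatids and 4000 against 1200 in WT spermatocytes. Length was not matched within this class of reads, and its part in these differences was not tested. BD1del and WT also differ in read set and control depth, so genotype cannot be told apart from these in the lower overlap.

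**Figure D3:**
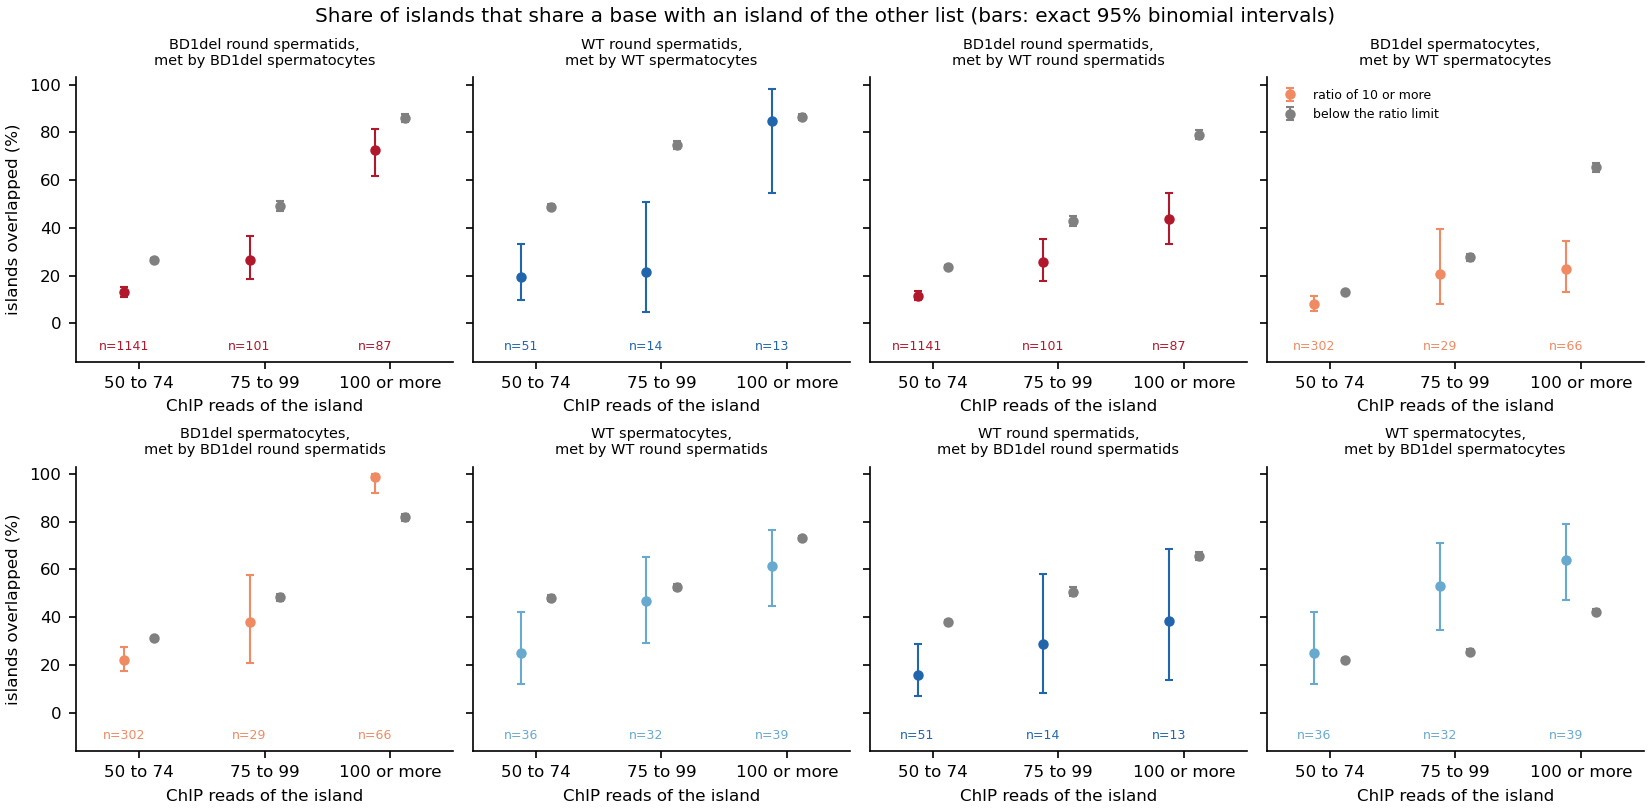
Percentage of islands overlapped by 1 base or more of the other list, by the ChIP reads of the island, for 8 directed pairs of lists; coloured points are members, grey points are islands that missed the ratio, bars are exact 95% binomial intervals and n is the number of members. Coloured and grey points rise to the right in every panel, and the coloured points lie below the grey points in most. Among the islands of 100 or more reads the exceptions are BD1del spermatocytes met by BD1del round spermatids, at 98.5%, and WT spermatocytes met by BD1del spermatocytes, at 64.1%.

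Many members met no other list at all. These were 934 (70.3%) in BD1del round spermatids, 226 (56.9%) in BD1del spermatocytes, 42 (53.8%) in WT round spermatids and 26 (24.3%) in WT spermatocytes, against 49.1%, 51.1%, 19.7% and 23.1% of the islands below the ratio limit. Islands in all 3 other lists were met by 33, 21, 6 and 19 members, or 2.48%, 5.29%, 7.69% and 17.8%, against 17.4%, 12.1%, 21.7% and 17.3%. WT spermatocyte members were close to the other well-read islands of their list on both counts. Members that met no other list were mainly those of few reads: among members with 100 or more ChIP reads they were 12.6%, 1.52%, 7.69% and 7.69%.

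The members of highest ratio that met no other list had between 57 and 160 ChIP reads. In BD1del round spermatids they were chr7:150715201-150715600 (84 ChIP and 11 control reads, ratio 41.6), chr5:117001601-117002000 (70 and 11, 34.7) and chr11:113264601-113265000 (68 and 11, 33.7). In BD1del spermatocytes they were chr19:3327001-3328000 (61 and 11, 31.3), chr12:70248801-70249200 (61 and 12, 28.7) and chr6:85319001-85320000 (57 and 12, 26.8). In WT round spermatids chr13:89596601-89597000 (69 and 11, 23.8) and chr14:82285001-82285200 (82 and 14, 22.2) followed the chromosome 8 island named above, and the long island chr5:5227601-5230200 (160 and 28, 21.6) also stood alone. In WT spermatocytes they were chr15:99222801-99224600 (108 and 11, 17.6), chr7:29884001-29884600 (87 and 10, 15.6) and chr15:6849401-6849800 (124 and 16, 13.9). All but the chromosome 5 island of WT round spermatids had fewer than 20 control reads, so each of these ratios rests on few control reads.

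Where a member met a well-read island, that island tended to have a raised ratio as well. Where several passing islands were met, the highest of their ratios was taken. Islands of different length can meet different numbers of islands, and the part of this was not tested. Between the BD1del stages, 134 members of round spermatids met a passing island of spermatocytes. The median ratio met was 7.77, and 59 of these members met a ratio of at least 10. The islands below the limit met islands with a median of 2.77. The 91 members of BD1del spermatocytes that met a passing round spermatid island found a median of 12.04, against 3.14. In WT the medians were 5.65 over 20 members of round spermatids and 5.59 over 18 members of spermatocytes, against 1.55 and 1.89. Within each genotype the island met at the other stage thus had a higher median ratio than those met by islands below the limit. Across genotypes, BD1del round spermatid members met WT round spermatid islands with a median ratio of 2.98 (83 members) against 1.84, and BD1del spermatocyte members met WT spermatocyte islands with 2.72 (36 members) against 1.52. WT spermatocyte members met BD1del spermatocyte islands with 5.86 (23 members) against 2.92. Ratios of different lists have different depths of control behind them, so only the difference within each pair is compared.

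Few loci passed the limits in several lists. Merging overlapping members gave 1838 loci, of which 70 had members in 2 or more lists, 2 in 3 lists and 0 in all 4. Between the BD1del stages, 59 of the 1329 members in round spermatids (4.44%) and 58 of the 397 in spermatocytes (14.6%) met a member of the other list, beside 0.223% and 0.285% of the islands below the limit. Between the WT stages it was 2 members in each list (2.56% in round spermatids and 1.87% in spermatocytes), beside 0.102% and 0.0711%. The shares depend on how many members each list has, so they are read against the islands below the limit and not against each other. The round spermatid lists shared 1 member, and the spermatocyte lists 5 (1.26% in BD1del and 4.67% in WT, beside 0.0685% and 0.119%). BD1del round spermatids and WT spermatocytes, which differ in stage and genotype, shared 8 (0.602% and 7.48%, beside 0.0509% and 0.383%).

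The loci in 3 lists were named after their values were seen. At chr6:142610201-142611800 the ratios were 14.3 in BD1del round spermatids (105 ChIP and 40 control reads), 14.6 in BD1del spermatocytes (83 and 32), 9.85 in WT round spermatids (307 and 118) and 10.3 in WT spermatocytes (691 and 120). At chr7:129510801-129512000 they were 18.8 (83 and 24), 9.76 (90 and 52), 17.6 (51 and 11) and 15.03 (84 and 10) in the same order. Each of these loci missed the fourth list by a ratio just under 10, so both were close to the limit or above it in every library.

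The loci strongly enriched at both BD1del stages were the largest shared set. They numbered 58 on 17 chromosomes, and 44 of them had 100 or more ChIP reads in both lists. Their ChIP reads had a median of 197.5 in round spermatids and 180.5 in spermatocytes, and were within 1.25-fold of each other at 37 of the 58. Control reads were further apart, with medians of 60.5 in round spermatids and 45.5 in spermatocytes. The ratio had a median of 15.6 (10.1 to 28.9) in round spermatids and 20.4 (10.2 to 91.4) in spermatocytes, and was higher in spermatocytes at 41 loci.

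Reads and ratio of these loci were used to choose them, so their differences between the stages are a description. Control reads were higher in round spermatids at 40 of the 58 loci, with a median quotient of round spermatids to spermatocytes of 1.49. For the 17 of these pairs with identical limits in both lists, control reads were higher in round spermatids at 15, with a median quotient of 1.62, and the quotient of ChIP reads was 1.11. Pairs of identical limits that were members in neither list went the other way. Control reads were higher in round spermatids at 34 of these 222, with a median quotient of 0.890, and the quotient of ChIP reads was 0.970. Of the islands named above, chr17:4626001-4626800 had 377 control reads in round spermatids against 88 in spermatocytes with nearly equal ChIP reads.

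WT had an island at some of the 58 loci, nearly always short of the limits. WT round spermatids had an island at 26 of them, with a median ratio of 3.21 (1.29 to 13.3), and WT spermatocytes at 14, with a median of 2.91 (1.34 to 10.3). Neither WT list had an island at 30. A WT island below the limit is the usual case, since members were 0.496% of the passing islands in WT round spermatids and 0.421% in WT spermatocytes. As a background, 33.0% of the BD1del round spermatid islands below the limit met a WT round spermatid island. Of the BD1del spermatocyte islands below the limit, 20.1% met a WT spermatocyte island. Over all autosomal islands these shares were 9.79% and 8.96%. They count single islands and not merged loci, which can be longer. The shares of the 58 loci with a WT island at the same stage were not below these backgrounds. No background was counted for the 30 loci without an island in either WT list. The BD1del spermatocyte member with the most ChIP reads, chr13:77578001-77579200, was no part of this set, since its ratio was 6.97 in BD1del round spermatids (1499 ChIP and 1171 control reads), 16.0 in BD1del spermatocytes (2284 and 803), 5.04 in WT round spermatids (716 and 538) and 3.68 in WT spermatocytes (1067 and 519). It had more than 700 ChIP reads in every list and was named after its values were seen.

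**Figure D4:**
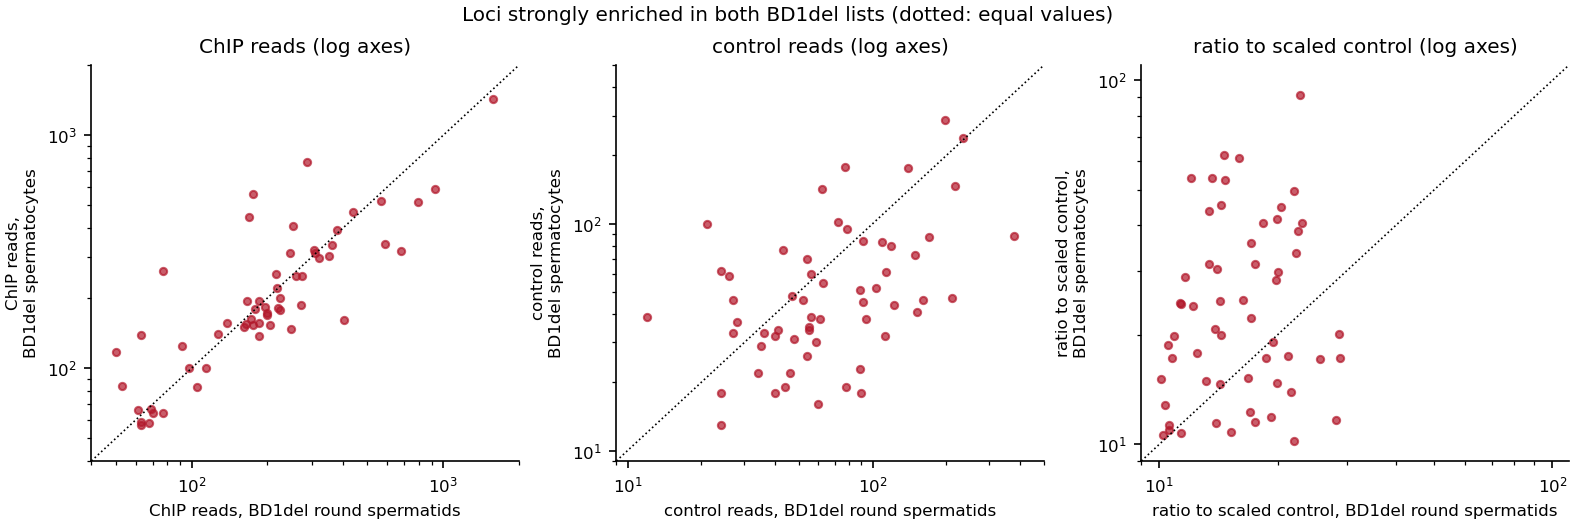
ChIP reads, control reads and ratio to scaled control of the 58 loci strongly enriched in both BD1del lists, with round spermatids on the horizontal and spermatocytes on the vertical axis, all axes logarithmic; each point is a locus and dotted lines mark equal values. ChIP reads lie along the line, control reads lie below it at 40 loci, and ratios lie above it at 41.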

How the data were processed

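ChIP and control reads, p-value, fold and FDR per island were taken from 4 lists made with SICER; this and the build mm9 are per the submitters' processing notes, and window and FDR limit per the labels of the lists. The version of SICER, aligner, read filters, treatment of duplicates and the input used for each list are not given in the sources used here. Counts are raw whole reads as deposited by the authors. The deposited p-value and FDR of the authors were not used to choose members. The fold deposited by the authors is ChIP reads over depth-scaled control reads; it served to compute the scale of each list (0.184, 0.177, 0.264 and 0.559 in BD1del round spermatids, BD1del spermatocytes, WT round spermatids and WT spermatocytes), from which the ratio was recomputed.

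Coordinates are 1-based. Islands of a list lie at least 800 bases apart. With 1 library per group no test between groups was possible; shares have exact (Clopper-Pearson) 95% intervals and medians order-statistic intervals. Python 3.11.15, numpy 2.4.6, pandas 2.3.3 and scipy 1.17.1 were used, and the scripts were tested on simulated lists. Named regions are, per list, the 3 islands of highest ratio, the 3 longest, the 2 runs with most members, the 3 of highest ratio that met no other list, the island on each side of the ratio limit, and loci in all 4 lists. Islands with most ChIP reads, loci in 3 lists, classes of ChIP reads and of length, and the loci of both BD1del lists were added later. Members and rules were chosen with earlier results of these data known. Gene lists were not used here, since no mm9 annotation was used. Alternatives were a ratio of 20, 20 control reads, 100 ChIP reads, equal numbers per list, stricter overlaps and other distances.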

Additional observations from a re-analysis of the deposited data

Results flagged for a closer look

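The same limits on reads and ratio were also met on the sex chromosomes, which the comparisons above leave out. In BD1del round spermatids 44 islands met them, 1.35% of the 3262 islands of X and Y that passed the read minimums, with a highest ratio of 44.7. In BD1del spermatocytes 18 did, 0.464% of 3877, with a highest ratio of 54.7. In WT round spermatids 9 did, 0.283% of 3181, with a highest of 21.0, and in WT spermatocytes 7 did, 0.113% of 6203, with a highest of 14.8. All but 1 island in BD1del spermatocytes lay on X. In each list the share was below the autosomal one of 7.80%, 1.49%, 0.496% and 0.421%.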

How the results depend on the processing

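No paired analysis was possible because each group had 1 library. Of 104 alternative values for 21 results, 45 stayed within the counting interval or within 1.5 times the count. In what follows lists are in the order BD1del round spermatids, BD1del spermatocytes, WT round spermatids, WT spermatocytes.
With a ratio of 20 the members numbered 182, 62, 10 and 4, median lengths were 400, 500, 700 and 1500 bases, 7.69% of BD1del round spermatid and 0 of WT spermatocyte members had a neighbour within 50 kb, and 7 loci had members in several lists. Overlaps were then 22.0% (BD1del round spermatids with BD1del spermatocytes), 67.7% (the reverse), 75% (WT spermatocytes with WT round spermatids), 10.0% (WT round spermatids with BD1del round spermatids), 19.4% (BD1del with WT spermatocytes) and 100% (the reverse).
With 20 control reads, 36 and 15 members were left in WT round spermatids and spermatocytes, 4.47% of BD1del round spermatid and 13.3% of WT spermatocyte members had a neighbour, and overlaps were 50% and 73.3% between the WT stages and 80.0% for WT spermatocytes with BD1del spermatocytes.
With 100 ChIP reads the members numbered 87, 66, 13 and 39, neighbours were 13.8% and 16.7% in the BD1del lists, the median length in WT round spermatids was 1200 bases, and overlaps were 72.4% and 98.5% between BD1del stages, 84.6% and 61.5% between WT stages, 43.7% and 38.5% between round spermatids and 22.7% and 64.1% between spermatocytes.
With equal numbers (78 per list, by ratio), median lengths were 400 and 600 bases in the BD1del lists, neighbours 10.3% in BD1del round spermatids and 0 in WT spermatocytes, overlaps 61.5% (BD1del spermatocytes with BD1del round spermatids), 17.9% (BD1del with WT round spermatids) and 16.7% (BD1del with WT spermatocytes), and 4 loci had members in several lists.
With overlap of at least 50% of the length the shares were 14.2% and 24.2% between BD1del stages, 33.6% for WT spermatocytes with WT round spermatids, 12.2% for BD1del with WT round spermatids and 31.8% for WT with BD1del spermatocytes; with the centre base, an alternative chosen after seeing the data, 13.8%, 23.9%, 11.4% for BD1del with WT round spermatids and 33.6% for WT with BD1del spermatocytes.
Within 10 kb 2.41% of BD1del round spermatid members had a neighbour, and within 200 kb 22.9%, with 10.1% in BD1del spermatocytes.
Fewer members and fewer reads follow from stricter limits by construction; the cause of the other shifts was not tested. With 78 and 107 members, shares in the WT lists have wide intervals, and the shallow WT spermatocyte control limits its ratios.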
